A study of Homo sapiens with 23 samples.

Results

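The 10 genes described here encode the enzymes that make, interconvert and break down polyamines, and the proteins that control the first of these enzymes. They are SMS, SRM, ODC1, AMD1, SAT1, SMOX, PAOX, OAZ1, OAZ2 and AZIN1, and each was found by its symbol among the 61217 genes listed in the authors' deposited tables. SMS, the spermine synthase, was picked because its level was lower after miR-23b-3p in both cell lines, so its values in those 2 comparisons are given as a description and are not tested; the other 9 genes complete the pathway. The series holds polyA RNA sequencing of C-33A, an established HPV-negative line labelled as cervical squamous cell carcinoma, and of CaSki, an established HPV-positive line labelled as a metastatic one. Each line received 100 nM of hsa-miR-124-3p, hsa-miR-23b-3p, hsa-miR-218-5p (called mimics below) or a negative control. The 23 samples form 8 groups of 3, except C-33A with miR-124-3p, which has 2. The titles number the replicates 1 to 3 in every group (2 and 3 with miR-124-3p in C-33A) but do not say whether they are separate cultures. The p-values measure spread among these samples only, in C-33A a spread pooled over genes, and that spread may be technical.

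The deposited tables give, for each mimic against the control of its line, a log2 fold change, its p-value and false discovery rate (FDR), the F score behind them, and the mean level over both groups as log2 CPM (reads of a gene scaled to library size). Values per sample are not analysed here, and the depth of each sample is unknown. A gene is said to have risen or fallen where its deposited FDR, from edgeR, was under 0.05. Genes whose mean log2 CPM was at least 0 in a table are called expressed there. Of the labelled cell type, CaSki expressed 5 of 5 squamous markers (TP63, KRT5, KRT6A, KRT14 and KRT17) and 5 of 5 epithelial markers (EPCAM, CDH1, KRT8, KRT18 and KRT19), while C-33A expressed 0 and 2 of them, so its label is not borne out by these markers. C-33A also expressed COL3A1 (mean log2 CPM 7.18) and 1 further of 5 fibroblast markers, PTPRC (2.55) of 4 leukocyte markers and 0 of 3 endothelial markers. CaSki expressed COL1A1 (1.79) of the fibroblast markers, CDH5 (0.38) of the endothelial markers and 0 of the leukocyte markers. The part of this in the results was not tested.

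Polyamines (putrescine, spermidine and spermine) are small, positively charged molecules that bind nucleic acids and are needed for growth and translation. Ornithine decarboxylase (ODC1) makes putrescine, AMD1 makes the decarboxylated S-adenosylmethionine that donates aminopropyl groups, and the synthases SRM and SMS add such groups to form spermidine and then spermine. Antizymes (OAZ1 and OAZ2) bind ornithine decarboxylase and send it to the proteasome, the antizyme inhibitor AZIN1 captures antizyme, and SAT1, PAOX and SMOX return the higher polyamines to lower ones. The pathway is often raised in carcinomas, where ODC1 is a known target of MYC.

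A microRNA recognises messages mainly through bases 2 to 8, its seed, which pair with a matching stretch of the 3′ UTR. The mature sequences are shown because the matches below derive from them, with the seed in capitals (RefSeq, GRCh38.p14). The sequence of miR-124-3p is not used here, and its matches were not sought.
miR-23b-3p: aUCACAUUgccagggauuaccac
miR-218-5p: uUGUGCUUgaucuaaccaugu
MIR23B lies at chr9:95085265-95085287 on the plus strand, and miR-218-5p comes from both MIR218-1, at chr4:20528299-20528319 on the plus strand, and MIR218-2, at chr5:168768211-168768231 on the minus strand. The seed of miR-23b-3p is shared by hsa-miR-23a-3p and hsa-miR-23c in the same RefSeq table.

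The 3′ UTRs of the 10 genes, taken from GENCODE release 29 (GRCh38; the longest coding transcript of each gene), were searched on the transcript strand for AATGTGA, the match to bases 2 to 8 of miR-23b-3p, and for AAGCACA, that of miR-218-5p. The first was found in SMS and AZIN1 and the second in AZIN1. Of 18970 annotated 3′ UTRs, 18.1% hold AATGTGA and 13.7% hold AAGCACA. A match to at least bases 2 to 7 is held by 37.2% for miR-23b-3p and 32.8% for miR-218-5p, and by 3 of the 10 genes for each. Of the 1835 3′ UTRs within 20% of the length of that of SMS (484 nt), 6.54% hold AATGTGA. Of 2356 within 20% of the length of that of AZIN1 (2210 nt), 26.5% do. The stretches of SMS and AMD1 below hold a match to at least bases 2 to 7, in capitals, and are shown because SMS is the member with the lower values after miR-23b-3p and AMD1 holds the shorter matches.
SMS, miR-23b-3p match: gaccccccccattagAATGTGAtttt
SMS, miR-218-5p match: tgaaggatggttagacAGCACAgcga
AMD1, miR-23b-3p match: tctgtgactgtgatgcATGTGAgtgt
AMD1, miR-218-5p match: gtttgattctgtaatgAGCACAgcac
The first stretch lies at chrX:21994595-21994620 on the plus strand (GRCh38), in the 3′ UTR of SMS (gene chrX:21940573-21994835), with the match at bases 259 to 265 of the 484 nt. The second lies upstream of it at chrX:21994552-21994577. The AMD1 stretches lie at chr6:110894785-110894810 and chr6:110895319-110895344 on the plus strand, in a 3′ UTR of 2097 nt (gene chr6:110874770-110895713). In SMS the match to miR-23b-3p covers bases 2 to 8 and is not followed by an A, so it is not of the 8-base kind, and the match to miR-218-5p covers bases 2 to 7 alone. Of 2 SMS transcripts with an annotated 3′ UTR, 1 holds the miR-23b-3p match, and of 2 such AZIN1 transcripts, 1 holds the matches of AZIN1. AZIN1 holds AATGTGA at bases 1412 to 1418 of its 3′ UTR, a further match to bases 2 to 7 followed by an A at bases 1947 to 1952, and AAGCACA at bases 1088 to 1094. A match is a description of the sequence and does not show that the microRNA binds there.

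**Figure D1:**
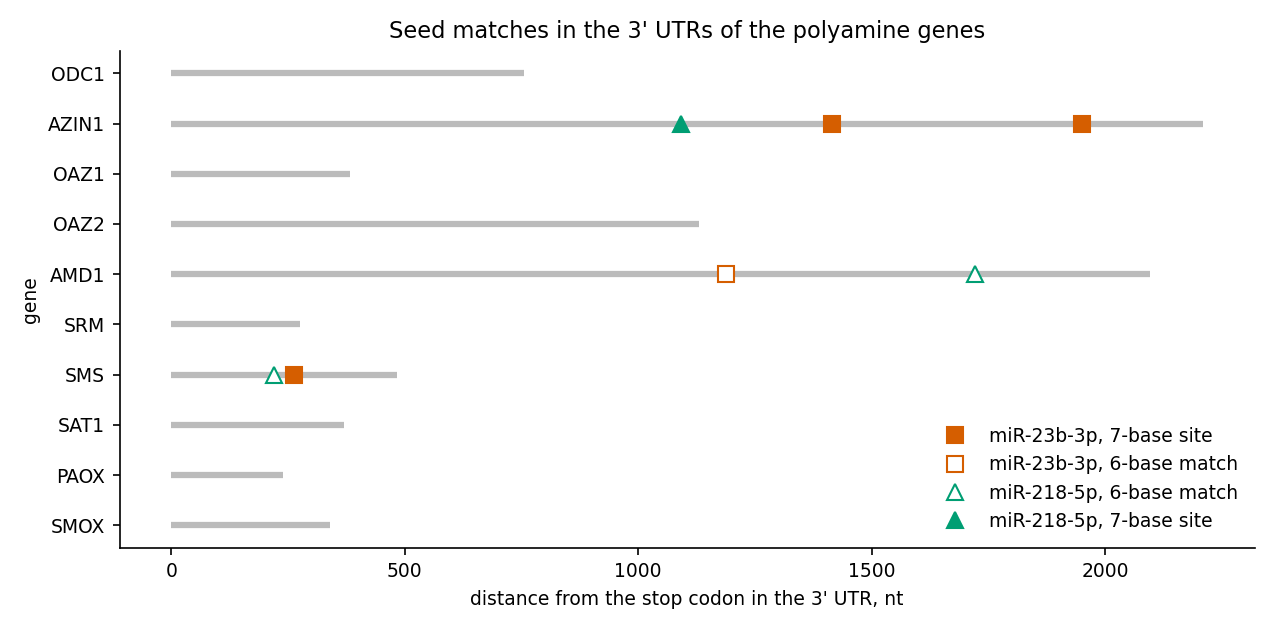
Seed matches in the 3′ UTRs of the 10 genes. The x axis is the distance from the stop codon in nt, grey bars are the 3′ UTRs, squares mark miR-23b-3p and triangles miR-218-5p; filled symbols are 7-base sites (a match to bases 2 to 8, or to bases 2 to 7 followed by an A) and open symbols other matches to bases 2 to 7. SMS, AMD1 and AZIN1 hold matches, and SMS and AZIN1 hold 7-base sites for miR-23b-3p.

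SMS adds the second aminopropyl group and makes spermine. A level for each group was derived from the deposited average and fold change of each table, as the CPM that would give both. In C-33A the SMS level was 58.8 CPM in the control group (58.2 to 59.3 as derived from the 3 tables), 57.5 with miR-124-3p, 56.01 with miR-218-5p and 31.6 with miR-23b-3p. In CaSki it was 190.0 CPM in the control group (189 to 191 from the 3 tables), 212 with miR-124-3p, 156 with miR-218-5p and 117 with miR-23b-3p. In both lines the miR-23b-3p group was the lowest of the 4 groups. These ranges come from deriving the same control group from each comparison, and they are not a spread over samples.

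After miR-23b-3p, the authors' deposited table for C-33A gave SMS a log2 fold change of -0.88 (SE 0.179), and 0.243% of the 15222 expressed genes had a lower one. For CaSki the authors' deposited table gave -0.70 (SE 0.125), and 3.97% of 15476 expressed genes had a lower one. SMS was the lowest of the 10 genes in both lines. The SE was recovered from the deposited fold change and p-value. Against the mean of the other 2 mimics, SMS stood at -0.82 in C-33A and -0.64 in CaSki on the log2 scale. In this contrast of fold changes the control cancels only so far as its level agrees between the comparisons of a line. Among the 2487 genes of C-33A whose 3′ UTR holds AATGTGA, SMS had the 16th lowest fold change. Among the 2506 such genes of CaSki it had the 66th lowest. The median of these genes was -0.08 in C-33A and 0.06 in CaSki, against 0.05 and -0.03 for genes without the match. The low rank of SMS follows from its choice and is given only as a description.

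SMS did not pass the threshold after the other mimics. For C-33A the authors' deposited tables gave a log2 fold change of -0.04 (SE 0.180) after miR-124-3p and of -0.08 (SE 0.165) after miR-218-5p. In CaSki the authors' deposited tables gave 0.15 (SE 0.125) after miR-124-3p and -0.27 (SE 0.123) after miR-218-5p. The last value had an unadjusted p of 0.0257 and a deposited FDR of 1. Of the other members with a miR-218-5p match, AMD1 stood at 0.00 and AZIN1 at 0.14 in the authors' deposited table for CaSki with miR-218-5p.

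**Figure D2:**
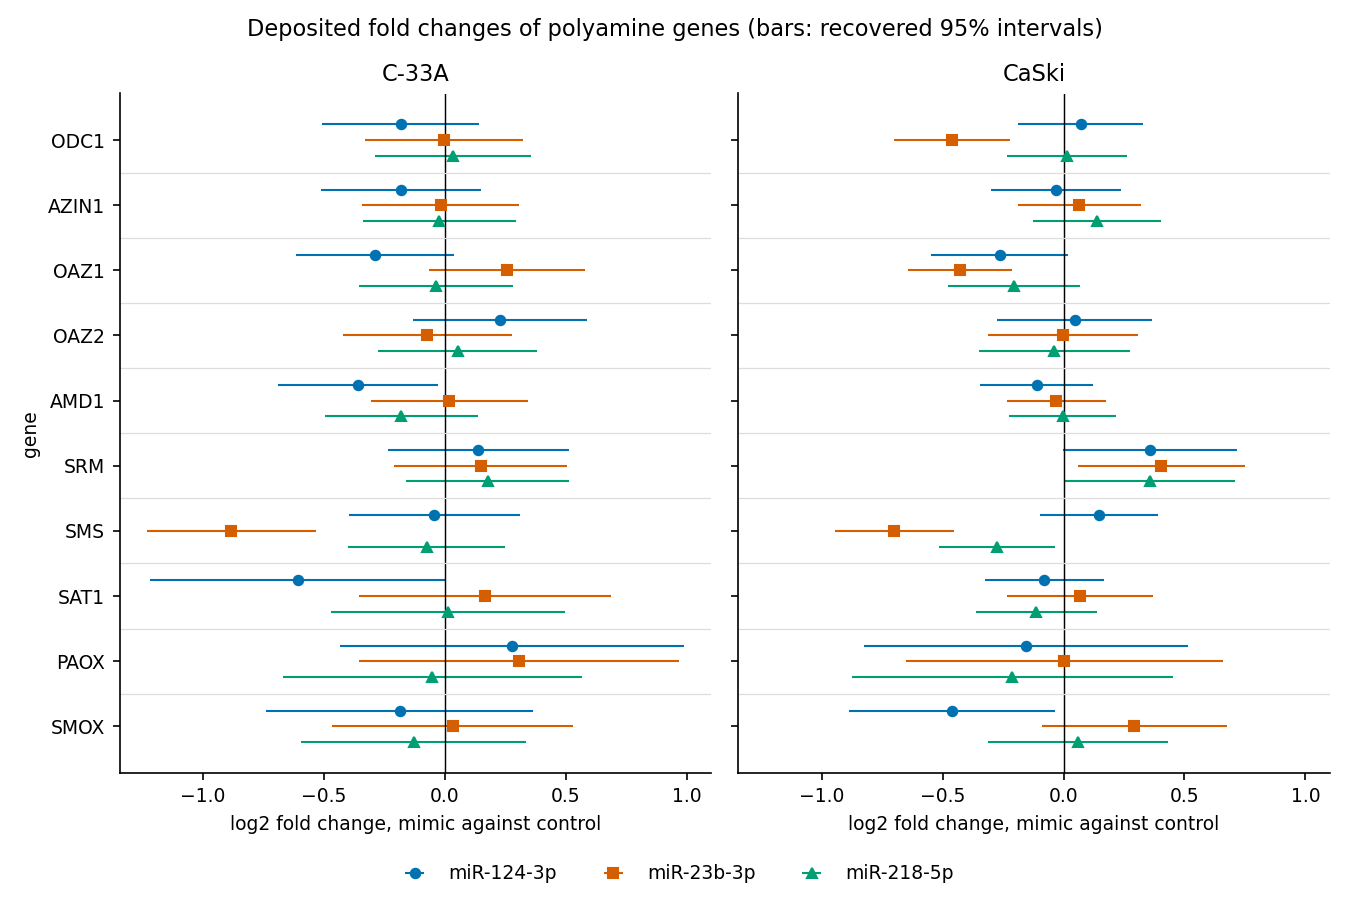
Log2 fold change of each gene against the control of its line, from the authors' deposited tables, with genes on the y axis ordered by role, 1 panel for each line and 1 symbol for each mimic. Bars are 95% intervals from the recovered SEs; SMS after miR-23b-3p lies at -0.88 in C-33A and -0.70 in CaSki.

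Of the 10 genes, 0 passed the threshold in C-33A with miR-124-3p, where 0.634% of 15466 expressed genes did, and 1 had an unadjusted p under 0.05, as did 9.57% of all expressed genes. In C-33A with miR-218-5p, 0 passed, against 0.299% of 15373 expressed genes, and 0 had an unadjusted p under 0.05, against 5.05% of all. In CaSki with miR-124-3p, 0 passed, against 1.2% of 15486 expressed genes, and 1 had an unadjusted p under 0.05, against 14.7% of all. In CaSki with miR-218-5p, 0 passed, against 0.0978% of 15332 expressed genes, and 2 (SMS and SRM) had an unadjusted p under 0.05, against 6.85% of all. In the tables that chose SMS, 1 gene (SMS) passed in C-33A with miR-23b-3p, against 0.191% of 15222 expressed genes, and 3 genes (SMS, ODC1 and OAZ1, all lower) passed in CaSki, against 9.09% of 15476 expressed genes. Nothing is read from the last counts, since SMS was chosen on these tables. The median log2 fold change of the 10 genes lay between -0.18, in C-33A with miR-124-3p, and 0.03, in C-33A with miR-23b-3p, while the median of all expressed genes lay between -0.04 and 0.01. PAOX was not expressed by this limit in CaSki after either miR-218-5p or miR-124-3p, and the other 9 members were in all 6 tables.

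ODC1, the decarboxylase that starts the pathway, was far higher in C-33A and passed the threshold in 1 comparison. In CaSki its derived level was 73.5 CPM in the control group, 76.3 with miR-124-3p, 72.6 with miR-218-5p and 55.2 with miR-23b-3p. ODC1 fell in the authors' deposited table for CaSki with miR-23b-3p, with a log2 fold change of -0.46 (SE 0.122, deposited FDR 0.0113). In C-33A its derived level was 1138 CPM in the control group and lay between 1010 and 1169 CPM with the mimics. For C-33A the authors' deposited tables gave ODC1 fold changes between -0.18 and 0.03, and the one after miR-23b-3p was 0.00 (95% interval -0.33 to 0.32). The 3′ UTR of ODC1 (756 nt; gene chr2:10439968-10448504) holds no AATGTGA or AAGCACA in the transcript searched.

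OAZ1, the main antizyme, had the highest level per length of the 10 genes in both lines, and its fold change after miR-23b-3p differed between them. In CaSki the derived level was 578 CPM in the control group, 474 with miR-124-3p, 488 with miR-218-5p and 448 with miR-23b-3p. OAZ1 fell by 0.43 on the log2 scale in the authors' deposited table for CaSki with miR-23b-3p (SE 0.109, deposited FDR 0.00771). In C-33A the derived level was 531 CPM in the control group, 438 with miR-124-3p, 520 with miR-218-5p and 628 with miR-23b-3p, the highest of the 4 groups there. The log2 fold change there, 0.26 in the authors' deposited table (SE 0.166), did not pass. In CaSki OAZ1 also had negative values after miR-124-3p (-0.26) and miR-218-5p (-0.20) in the authors' deposited tables, without passing. Against the mean of these 2 mimics, OAZ1 after miR-23b-3p stood at -0.19 in CaSki. The derived control level of OAZ1 in CaSki ran from 562 to 603 CPM over the comparisons, and this difference remains in that value. OAZ1 has a short transcript (1148 nt), and the fall in CaSki was not called once a trend on transcript length and GC content was subtracted, as described below.

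OAZ2, a second antizyme, and AZIN1, the antizyme inhibitor, passed in no comparison. OAZ2 stood at 44.5 CPM in the control group of C-33A and 19.8 CPM in that of CaSki, and its log2 fold changes in the authors' deposited tables lay between -0.07 (C-33A, miR-23b-3p) and 0.23 (C-33A, miR-124-3p). AZIN1, at 207 CPM in C-33A and 404 CPM in CaSki, lay between -0.18 (C-33A, miR-124-3p) and 0.14 (CaSki, miR-218-5p) in the authors' deposited tables. AZIN1 holds both miR-23b-3p sites and the miR-218-5p site named above. After miR-23b-3p the authors' deposited tables gave AZIN1 -0.02 in C-33A (95% interval -0.34 to 0.31) and 0.06 in CaSki (95% interval -0.19 to 0.32). Of the genes with AATGTGA in the 3′ UTR, 63.5% in C-33A and 51.2% in CaSki had a lower fold change than AZIN1.

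AMD1, whose product supplies the aminopropyl donor, passed in no comparison. Its derived level in C-33A was 263 CPM in the control group, 207 with miR-124-3p, 233 with miR-218-5p and 264 with miR-23b-3p. After miR-124-3p the authors' deposited table for C-33A gave AMD1 a log2 fold change of -0.36 (SE 0.169, unadjusted p = 0.0329, deposited FDR 1). In CaSki its derived levels ran from 115.3 to 124.2 CPM, and after miR-23b-3p the authors' deposited table gave -0.03 (95% interval -0.24 to 0.18).

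SRM, which makes the spermidine that SMS uses, had positive fold changes that did not pass the threshold. In CaSki the derived level was 15.8 CPM in the control group, 20.8 with miR-124-3p, 20.3 with miR-23b-3p and 20.5 with miR-218-5p. The 3 mimic groups were nearly equal and the control group was the lowest. The authors' deposited tables for CaSki gave SRM 0.36 (SE 0.184) after miR-124-3p, 0.40 (SE 0.176) after miR-23b-3p and 0.36 (SE 0.180) after miR-218-5p, with deposited FDRs of 1, 0.319 and 1. These 3 comparisons share the control libraries. Against the mean of the other 2 mimics SRM stood at -0.02, 0.05 and -0.02 in the same order. The derived control level of SRM in CaSki ran from 15.4 to 16.2 CPM over these comparisons. This difference remains in the contrast, so nothing is read from its signs. In C-33A, in the same order, the authors' deposited tables gave SRM 0.14, 0.15 and 0.18. Per length, the ratio of the derived level of SMS to that of SRM in C-33A was 1.17 in the control group. It was 1.03 with miR-124-3p, 0.979 with miR-218-5p and 0.571 with miR-23b-3p. In CaSki this ratio was 8.26 in the control group, 7.03 with miR-124-3p, 5.26 with miR-218-5p and 3.96 with miR-23b-3p. The ratios with miR-23b-3p hold the SMS values that led to its choice and are given as a description.

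The genes of polyamine breakdown passed in no comparison. SAT1, the acetyltransferase that tags spermidine and spermine for oxidation or export, had a derived level of 5.51 CPM in the control group of C-33A and of 3.64 CPM with miR-124-3p. In the authors' deposited table for C-33A with miR-124-3p the log2 fold change of SAT1 was -0.61 (SE 0.311, unadjusted p = 0.0504, deposited FDR 1). In CaSki, where SAT1 stood at 96.9 CPM in the control group, the authors' deposited tables gave it fold changes between -0.11 and 0.07. SMOX, which oxidises spermine directly to spermidine, stood at 9.99 CPM in the control group of CaSki, 7.19 with miR-124-3p, 10.2 with miR-218-5p and 12.6 with miR-23b-3p. After miR-124-3p the authors' deposited table for CaSki gave SMOX -0.46 (SE 0.218, unadjusted p = 0.0341, deposited FDR 0.959). After miR-23b-3p the authors' deposited table for CaSki gave SMOX 0.29 (SE 0.195). PAOX, which oxidises acetylated polyamines, stood at 2.28 CPM in the control group of C-33A and 1.07 CPM in that of CaSki, and its errors in the tables were the widest (SE 0.316 to 0.363).

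**Figure D3:**
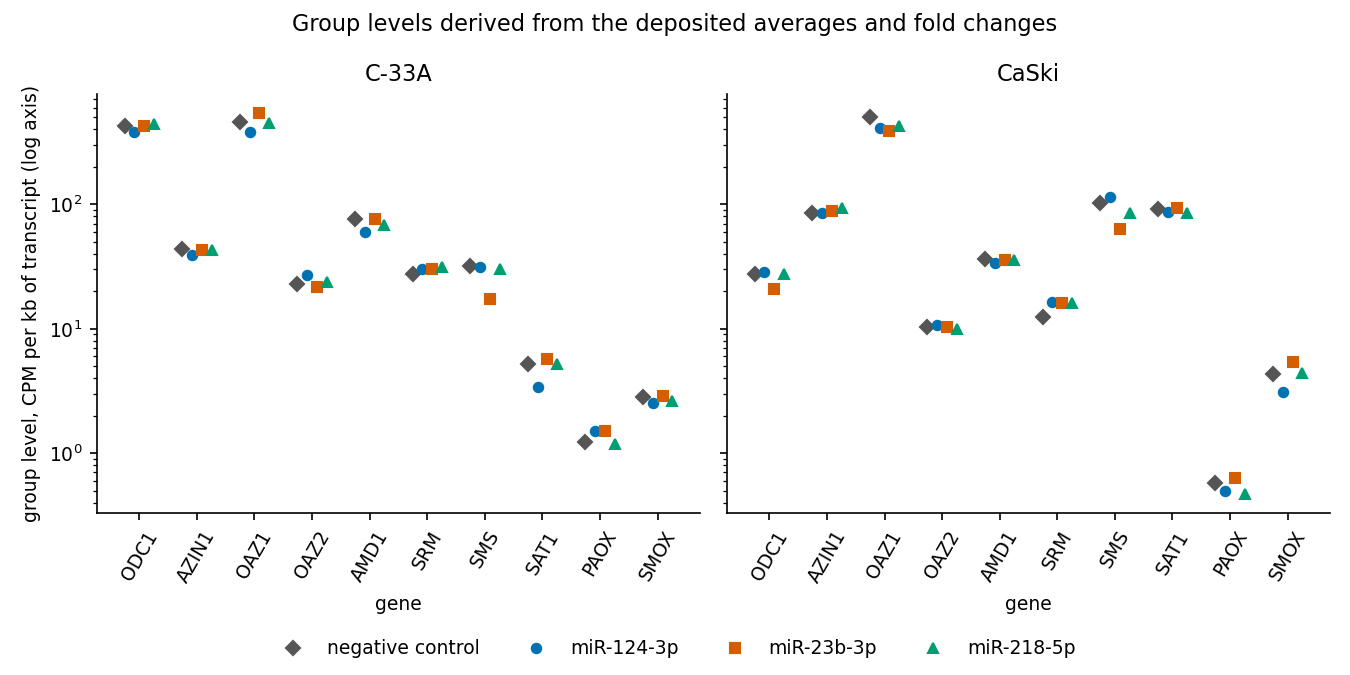
Level of each gene in each group, in CPM per kb of the longest coding transcript on a log axis, derived from the authors' deposited averages and fold changes; genes are on the x axis and symbols are groups, with no error since values per sample are not analysed here. ODC1 is high in C-33A (429 in the control group, against 27.7 in CaSki) and SAT1 is high in CaSki (91.0, against 5.17).

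The order of the levels per kb of transcript differed between the lines; with no values per sample, which neighbours in it differ beyond their spread cannot be given. In the control group of C-33A, OAZ1 (462 CPM per kb) and ODC1 (429) were followed by AMD1 (76.6), AZIN1 (43.9), SMS (32.0), SRM (27.5), OAZ2 (23.02), SAT1 (5.17), SMOX (2.85) and PAOX (1.23). In the control group of CaSki, OAZ1 (503 CPM per kb) was followed by SMS (103), SAT1 (91.0), AZIN1 (85.7), AMD1 (36.1), ODC1 (27.7), SRM (12.5), OAZ2 (10.3), SMOX (4.30) and PAOX (0.578). The lines were scaled in separate tables, so ratios between them carry no test. The CPM of ODC1 in C-33A was 15.5 times that in CaSki, a log2 ratio of 3.95 that exceeds those of 99.5% of the 12878 genes at 1 CPM or more in both control groups, and of 94.6% of the 17907 genes at that level in either. The CPM of SAT1 in CaSki was 17.6 times that in C-33A, and 1.21% of the first and 8.02% of the second of these sets had a lower log2 ratio than its -4.14. SMS was 3.23 times and AZIN1 1.95 times as high in CaSki, while SRM, AMD1, PAOX and OAZ2 were 2.12 to 2.24 times as high in C-33A, and OAZ1 was nearly level (0.918). ODC1-DT, the divergent transcript beside ODC1, had a mean log2 CPM of 2.89 to 2.97 in the authors' deposited tables of C-33A and of -3.08 to -3.00 in those of CaSki. Among the 10 genes the largest ratios between the lines were thus those of the entry enzyme ODC1 and of SAT1, which starts breakdown.

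**Figure D4:**
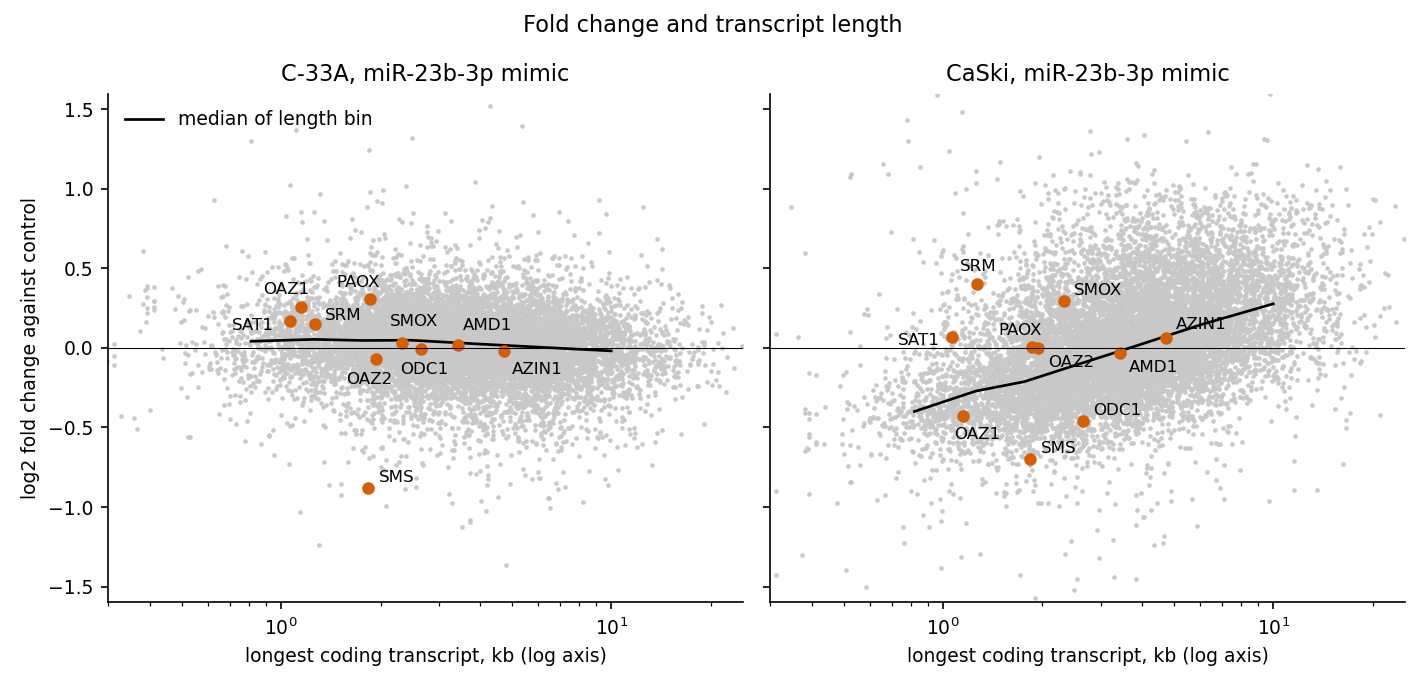
Log2 fold change after miR-23b-3p (y axis) against the length of the longest coding transcript in kb (x axis, log), from the authors' deposited tables. Grey points are expressed genes (those beyond the axes are not drawn), the line joins medians of length bins and orange points are the 10 genes; in CaSki the line runs from -0.40 to 0.28 and SMS, ODC1 and OAZ1 lie below it.

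In CaSki with miR-23b-3p the median fold change of all genes was higher the longer the transcript, so each member is set beside genes of like length. Between transcripts under 1000 nt and those of 8000 nt or more, this median went from -0.40 to 0.28. It also rose in CaSki with miR-124-3p (-0.24 to 0.16) and miR-218-5p (-0.15 to 0.12). In C-33A it rose with miR-124-3p (-0.22 to 0.07) and miR-218-5p (-0.09 to -0.003), and went from 0.04 to -0.02 with miR-23b-3p. In CaSki with miR-23b-3p the median log2 fold change was -0.27 for 784 genes with transcripts of 1000 to 1500 nt (the bin of SRM, SAT1 and OAZ1). It was -0.21 for 1165 genes of 1500 to 2000 nt (SMS, PAOX and OAZ2) and -0.11 for 2652 genes of 2000 to 3000 nt (ODC1 and SMOX). A smooth trend on length and GC content was fitted over these genes and subtracted. After miR-23b-3p SMS then stood at -0.56 in CaSki and -0.87 in C-33A, given as a description. ODC1 stood at -0.41 in CaSki and was still called. OAZ1 went from -0.43 to -0.15 and was no longer called (adjusted p = 0.436, normal test over all genes). SRM went from 0.40 to 0.77 and was called as higher (adjusted p = 0.000853), and in CaSki with miR-124-3p it went from 0.36 to 0.61 (adjusted p = 0.0366). The calls of OAZ1 and SRM in CaSki therefore turned on this trend, whose source was not tested. The share of all genes called after the subtraction is not given here, so whether the SRM calls stand out cannot be read.

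The fold changes of the 2 lines, which share no libraries, were compared for each mimic by a normal test with the recovered SEs, adjusted over all genes expressed in both lines. After miR-124-3p and miR-218-5p, 0 of 9 members tested differed between the lines and 0 had an unadjusted p under 0.05, which 2.51% of 12970 and 1.56% of 12902 genes had, respectively. By the adjusted p, 0 genes of all those tested differed after either mimic. After miR-23b-3p, where 220 of 12905 genes passed, OAZ1 differed by 0.69 (C-33A minus CaSki, SE 0.198, adjusted p = 0.039). ODC1 differed by 0.46 (SE 0.206, unadjusted p = 0.0263) and did not pass (adjusted p = 0.244). Of the 12905 genes, 15.6% had an unadjusted p under 0.05 after miR-23b-3p. Once the length and GC trend was subtracted, the difference of OAZ1 was 0.34 and did not pass (adjusted p = 0.665), that of ODC1 was 0.36 (adjusted p = 0.656), and that of SRM, -0.25 before, was -0.77 (adjusted p = 0.184). With the trend subtracted, 23 of all 10510 genes tested passed after miR-23b-3p, against 220 of 12905 before. For SMS after miR-23b-3p the lines differed by -0.18 (95% interval -0.61 to 0.25), given as a description.

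Genes that feed or follow the pathway were taken from 6 lists of 38 genes in all, 26 to 28 of which were expressed in each table. In the 3 C-33A tables, and in CaSki after miR-218-5p or miR-124-3p, 0 of these genes passed the threshold. In CaSki with miR-23b-3p, 2 of 26 rose and 1 fell, against 9.09% of all genes called. MAT2A, which makes S-adenosylmethionine, rose (0.73 in the authors' deposited table, SE 0.132, deposited FDR 3.06e-05). Its values in the authors' deposited tables of CaSki were also positive after miR-124-3p (0.30) and miR-218-5p (0.44) without passing, and C-33A with miR-23b-3p had 0.10. SLC7A1, a carrier of arginine and ornithine, rose (0.42 in the authors' deposited table, SE 0.121, deposited FDR 0.0252). OAT, which removes ornithine toward glutamate and proline, fell (-0.39 in the authors' deposited table, SE 0.109, deposited FDR 0.0192). Once the length and GC trend was subtracted, MAT2A stood at 0.76 and was still called (adjusted p = 4.43e-06), while SLC7A1 at 0.24 (adjusted p = 0.218) and OAT at -0.24 (adjusted p = 0.139) were no longer called. By list, 1 of 10 expressed genes of S-adenosylmethionine supply and salvage and 2 of 5 of arginine and ornithine use were called in that table. The counts were 0 of 3 for hypusine (the spermidine-derived residue of the translation factor EIF5A), 0 of 5 for polyamine transport, 0 of 1 for further paralogs and 0 of 2 for MYC and its partners.

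**Figure D5:**
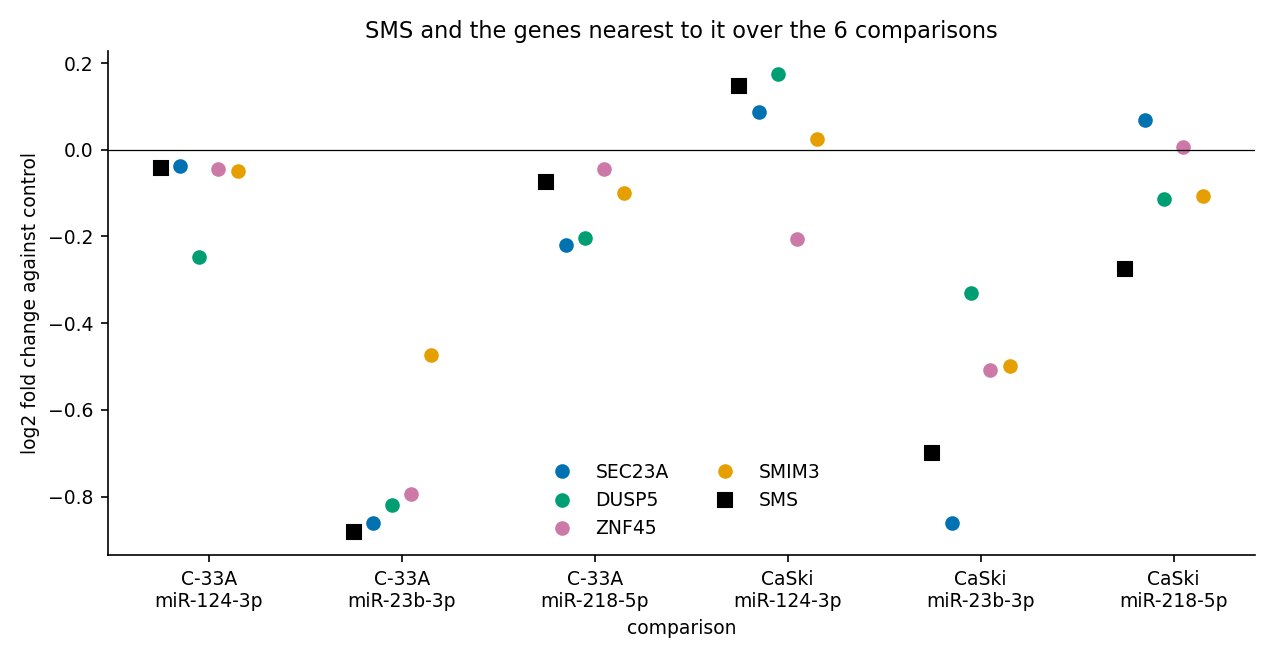
Log2 fold change (y axis) in each of the 6 comparisons (x axis) for SMS (black squares) and the 4 genes with the smallest root mean square difference from it (coloured circles), from the authors' deposited tables. SEC23A lies nearest, at -0.86 in both miR-23b-3p comparisons.

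The genes most like SMS over the 6 comparisons were found by the root mean square difference of the log2 fold changes, among 9693 protein coding genes whose mean log2 CPM was at least 1 in all tables. They were SEC23A (0.168), a subunit of the COPII coat of transport vesicles, DUSP5 (0.194), a phosphatase of ERK, ZNF45 (0.203) and SMIM3 (0.205), and the median over all candidates was 0.524. SEC23A and DUSP5 hold AATGTGA in the 3′ UTR searched, and ZNF45 and SMIM3 do not. Of 10424 3′ UTRs of genes expressed in both miR-23b-3p comparisons, 21.8% hold it. DUSP5 and SMIM3 passed the threshold after miR-23b-3p in neither line. Comparisons of a line share their control, so these are not 6 independent points. Of the nearest 5 genes, 2 (SEC23A and SMIM3) were again among the first 5 after the length and GC trend was subtracted. The nearest other member was ODC1, at rank 613 (0.398), and of the 8 other members ranked (PAOX was below the limit) SRM lay farthest, at rank 8567 (0.686). By its choice SMS is among the 7 genes, all lower, that passed the threshold in both miR-23b-3p tables. The others are B4GAT1, DDAH1, EIF4EBP2, MSMO1, SEC23A and ZNF45, named because they form this count. After miR-23b-3p, 29 of 15222 expressed genes passed in C-33A and 1406 of 15476 in CaSki, and 12905 genes were expressed in both. The overlap was not tested.

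Few reads were assigned to copies of the members. The pseudogenes SMSP1 and OAZ1P1 had a mean log2 CPM between -3.60 and -4.13 in the authors' deposited tables. SRMP2, a pseudogene of SRM, reached 0.81 to 1.06 in the authors' deposited tables of CaSki, against 4.16 to 4.21 for SRM itself, and reads may be split between them. The library protocol in the labels makes the second strand with dTTP, a step that marks no strand, so reads from the genes annotated on the opposite strand of OAZ1, OAZ2 and AZIN1 cannot be told apart from theirs. ODC1, PAOX and OAZ1 overlap genes on their own strand (SNORA80B in ODC1).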

How the data were processed

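The members and lists were chosen with earlier results of these data known. Per the submitters' processing notes, the tools were edgeR 3.36.0, STAR 2.7.10b, FastQC 0.73 and featureCounts 2.0.3, with GRCh38 (hg38); their settings are not given in the sources used here. Per the file headers, each of 6 deposited tables holds, for 61217 genes, the deposited log2 fold change and p-value with the FDR, the F score and the mean level as log2 CPM. Adjusting the deposited p-values over all genes by Benjamini-Hochberg gives back the FDR. A count fit had been planned if values per sample were at hand; the deposited statistics were used instead. The denominator degrees of freedom implied by the deposited F score and p-value had a median of 183651 to 244868 in C-33A and 25.7 to 38.2 in CaSki, so C-33A errors rest on a spread pooled over genes. An SE is the log2 fold change over the normal quantile of the p-value. A group level is the CPM that gives the deposited average and fold change with the group sizes, approximate since libraries are taken as equally weighted; control levels from the 3 tables of a line differed by a median factor of 1.02 in C-33A and 1.05 in CaSki. GENCODE release 29 gave a coding transcript for 19583 of 61217 symbols. The trend was a spline on length and GC content (mgcv 1.9.3, R 4.3.3), and other steps used Python 3.11.15 and SciPy 1.17.1. Alternatives were other FDR thresholds, other gene sets for the adjustment, subtraction of a median or of the trend, and, in place of the control, the mean over the line's 2 remaining mimics. The test between lines was run on simulated normal fold changes that took the recovered SEs as true. That run checks the calculation and cannot show whether those SEs fit the real data. Named genes were all 10 members, called members of the lists (up to 4 a list), the 5 genes nearest to SMS (1 of them is not reported here), and copies of members.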

Additional observations from a re-analysis of the deposited data

Results flagged for a closer look

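The fold change of OAZ1 after miR-23b-3p differed between the lines by 0.686 on the log2 scale (C-33A minus CaSki, adjusted p = 0.039, normal test over 12905 genes with Benjamini-Hochberg adjustment), with 0.26 in C-33A and -0.43 in CaSki in the authors' deposited tables. It was the 1 tested difference among the members that passed. After subtraction of the length and GC trend it was 0.339 and did not pass. Of all genes tested, 220 of 12905 passed before this subtraction and 23 of 10510 after it.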

How the results depend on the processing

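The counts of members called in each comparison kept within 1.5 times their value with FDR thresholds of 0.01 and 0.10, with adjustment over genes of mean log2 CPM at least 0 or 1, and with the median of expressed genes subtracted. After subtraction of the length and GC trend, the count in CaSki with miR-124-3p went from 0 to 1 (SRM) and the median fold change of the members there from -0.05 to 0.142. The trend also left the count in CaSki with miR-23b-3p at 3, with SRM in place of OAZ1. The share of all genes called with the trend subtracted is not given here, so nothing is read from these counts. For the following results, subtracting this trend was an alternative chosen after seeing the data. The number of members that differed between the lines after miR-23b-3p went from 1 to 0. Over all genes tested it went from 220 of 12905 to 23 of 10510. Of the 5 genes most like SMS, 2 stayed among the nearest 5. The calls among the genes of the 6 lists went from 0 to 2 (MTR and SLC7A2, both lower) in CaSki with miR-124-3p. In CaSki with miR-23b-3p they went from 3 to 2 (MAT2A and MAT2B). Subtracting a median leaves the list of genes nearest to SMS as it is by construction. Against the mean of the other mimics, 16 of 60 member values moved by more than their SE and 44 did not. With 8-base matches 0 members held a miR-23b-3p site and 0 a miR-218-5p site, against 8.65% and 4.42% of all annotated 3′ UTRs. With matches to bases 2 to 7 there were 3 with a miR-218-5p match, against 32.8% of all. For miR-23b-3p there were 3, against 37.2% of all. Where it is not named above, the cause was not tested. Leaving out replicates was not run, since the tables hold no values per sample. No paired analysis was possible because the columns are comparisons and carry no replicate numbers, although the sample titles do. Depth is unknown; the widest errors were those of PAOX.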
